A study of Danio rerio with 11 samples.

Results

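Melanoma cells of zebrafish tumors were compared with melanocytes sorted from wild-type skin, gene by gene. The comparison takes in 8 of the 11 RNA-seq samples of the series, 5 melanomas (MA) and 3 samples of wild-type melanocytes (MC_WT), and each of the 24441 genes of the expression table once. The MA samples were GFP-positive cells sorted from tumors of BRAF V600E/p53 lf/lf/crestin:EGFP fish, in which the mitfa promoter drives the human oncogene in the melanocyte lineage and the crestin reporter marks neural crest-like cells. A fish each gave MA1 and MA2, whereas the 3 tumors MA3A, MA3B and MA3C grew on a further fish, so the 5 tumors stand for 3 fish. The MC_WT samples were mCherry-positive melanocytes sorted from the peeled skin of 3 AB* fish carrying MiniCoopR with mitfa:mCherry. Because MiniCoopR holds a mitfa minigene, reads of the transgene and of the endogenous gene were not separated. The remaining 3 samples were skin melanocytes with mitfa:mCherry from fish heterozygous for the oncogene, for p53 and for mitfa (MC_Het). They were left out of the main fit and were used only for side-by-side values and in a separate fit of all 3 groups. Genotype, tissue of origin and sort marker all changed together between MA and MC_WT, so their contributions cannot be told apart.

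As background, melanocytes arise from the neural crest, and the transcription factor Mitfa directs their fate and the pigment enzymes they make. BRAF V600E signals through the MEK and ERK kinases without upstream input, and cells answer ERK with feedback genes such as the Sprouty and dual-specificity phosphatase families. The p53 protein limits the cell cycle through targets such as cdkn1a, and its loss speeds melanoma in fish that carry the oncogene. Zebrafish melanomas are also known for returning to a neural crest-like state marked by crestin and sox10.

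Libraries held between 18293604 and 22612463 reads in MA and between 18622395 and 21390942 in MC_WT, and the 11 samples share 1 sequencing run. MC_WT2 stood apart from its group, with 140 genes at least 4-fold below both other MC_WT samples and 66 at least 4-fold above, among 8911 genes that reached 10 CPM in a sample of the group. Of those 140 genes, 103 were called lower in MA. Counts over all genes, and counts of lists that moved without that sample, are also given without it. For most single genes only the fit with all samples is given. Mitochondrial ribosomal RNA took 5.86 to 11.9% of the counts in MA and 6.07 to 9.01% in MC_WT. Checked against their labels, both groups held pigment genes, and the melanin list summed to 3869 to 13265 CPM in MA and 773 to 1573 CPM in MC_WT. The keratinocyte marker sum in MC_WT was far larger, at 87132 to 145412 CPM. Leukocyte and fibroblast marker sums, given below, also exceeded the melanin sum in every MC_WT sample. Lists differ in size and abundance, so these sums are not shares of cells. The word melanocytes here names the sorted samples, which held markers of other cells as well. Keratins, counted together with the ictacalcin (icn) genes of fish skin, took 0.468 to 1.27% in MA and 6.01 to 8.36% in MC_WT. Across genes, tumors of the same fish correlated at 0.927 to 0.939 on the log2 scale (3 pairs) and tumors of different fish at 0.881 to 0.927 (7 pairs), while a tumor and an MC_WT sample correlated at 0.562 to 0.656 (15 pairs). Genes are not independent replicates, so these values describe the samples and carry no test.

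Values below are CPM, the reads of a gene per 1e6 reads of the library, rescaled between samples by the median of ratios, and a log2 fold change is that of MA over MC_WT on the log2(CPM + 1) scale, which understates the change of low genes. Per-sample values of the tumors are written in the order MA1, MA2, MA3A, MA3B, MA3C, and those of the melanocytes in the order MC_WT1, MC_WT2, MC_WT3. A gene was called where the limma adjusted p was under 0.05 and the fold change exceeded 2-fold. Of 13945 genes tested, 2482 were called higher in MA (17.8%) and 3446 lower (24.7%). The counts of each gene list below are to be read beside these shares. The lower genes moved further, with a median log2 fold change of -2.50 against 1.69 for the higher genes. Past 16-fold there were 83 higher genes and 717 lower genes. At an adjusted p of 1e-06, the cut used in the study, limma gave 11 higher genes (0.0789%) and 190 lower genes (1.36%). The study names DESeq2, so its counts at that cut are not comparable with these. For mdkb the adjusted p was 7.1e-05 with limma and 6.4e-23 with DESeq2. For krt5 it was 5.9e-08 with limma and 9.4e-104 with DESeq2. In 2104 of the higher genes every tumor lay above every MC_WT sample, and in 3136 of the lower genes every tumor lay below. Such separation, with or without a call, was seen in 19.5% of tested genes with MA higher and in 24.8% with MA lower. The 3 tumors of fish 3 are not independent of each other, and with their values averaged into 1 sample 2202 genes were higher and 3274 lower, of which 2081 and 3175 were among those above. The split of directions depended on the scaling, since CPM as deposited gave 5114 higher and 2492 lower genes (32.8% of calls lower, against 58.1%) and moved the median of all genes to 0.70, against 0.05. Scaling to the 75th percentile gave 3082 higher and 3142 lower. Without MC_WT2, 2201 genes were higher and 2636 lower. Testing required 1 CPM in at least 3 samples, so without an MC_WT sample a gene under 1 CPM in every tumor was not tested. Such genes count as not called in those fits, here and in the lists below. Part of the drop in lower calls follows from this filter. A gene under 1 CPM as deposited in every sample of a group reached the test only through the other group. The counts include such genes, but the call alone is no result about them. Among the genes named below this holds for hsd17b7, erbb3b, vwf, pvalb4 and mylpfa, low in MA. It also holds for ntng2a, cart3, gucy2c, rrm2, hoxc13b and pax8, low in MC_WT.

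**Figure D1:**
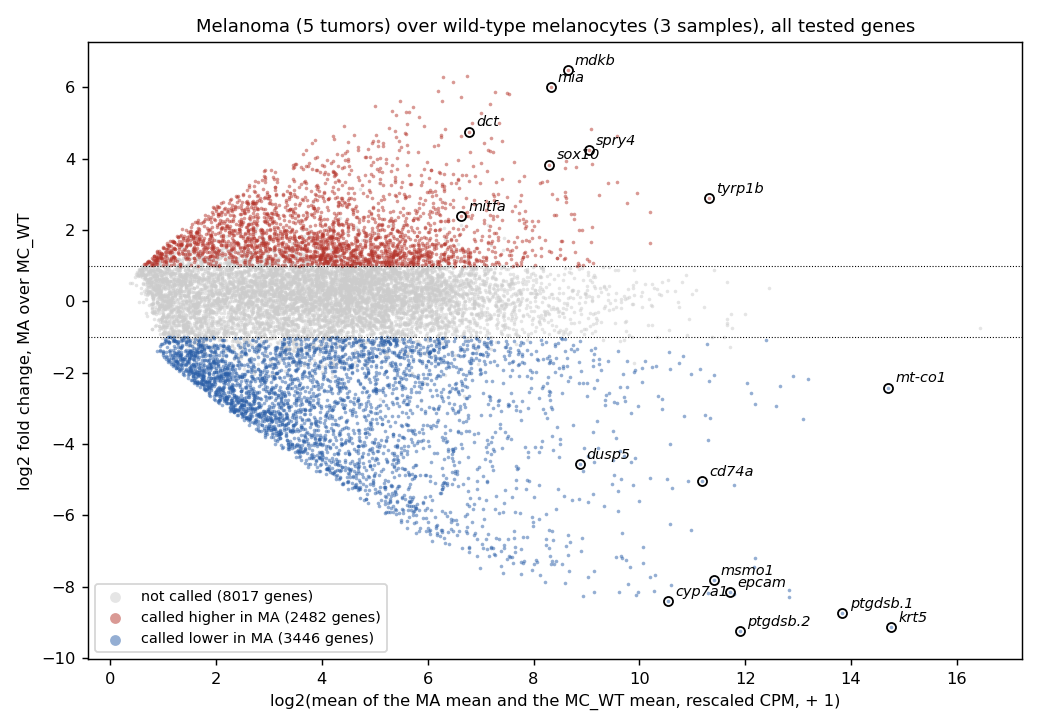
Log2 fold change of MA over MC_WT (vertical axis) against mean abundance (horizontal axis, log2 of rescaled CPM + 1) for the 13945 tested genes, each a point, with called genes coloured by direction. The 3446 lower genes reach further from 0 than the 2482 higher genes, with ptgdsb.2 at -9.26 and mdkb at 6.48.

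Genes with the largest increase in MA included those of secreted and surface proteins and of a homeobox factor. mdkb, a midkine growth factor, had 1263, 66.7, 1424, 379 and 827 CPM in MA, against 4.46, 4.64 and 5.48 CPM in MC_WT. The tumors averaged 792 ± 574 CPM (SD, n = 5) and the melanocytes 4.86 ± 0.546 CPM (SD, n = 3). The log2 fold change of mdkb was 6.48 ± 0.82 (SE; adjusted p = 7.1e-05), and MA2 was the lowest tumor yet still above every melanocyte sample. mia, a secreted protein first described in melanoma cultures, had 1458, 45.2, 169.8, 1129 and 372 CPM in MA and 4.94, 4.44 and 3.83 CPM in MC_WT (log2 fold change 6.0 ± 0.92, SE; adjusted p = 0.00029). For mia too MA2 was lowest and the groups did not overlap. ntng2a, a netrin-G protein of the axon surface, had 311, 22.8, 278, 77.5 and 188 CPM in MA, against 0.796, 0.719 and 0.792 CPM in MC_WT. Again MA2 was the lowest tumor and the groups stood apart. rdh8a, a retinol dehydrogenase, was more even, with 256, 456, 158, 329.9 and 316 CPM in MA and 4.06, 3.92 and 3.76 CPM in MC_WT. The log2 fold change of rdh8a was 5.87 ± 0.33 (SE; adjusted p = 3.2e-07).

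Neuronal and cartilage-type genes were also in this set. kctd4, of the potassium channel tetramerisation domain family, had 300.2, 92.5, 272, 247 and 139 CPM in MA, against 1.03, 1.44 and 1.78 CPM in MC_WT. cart3, a CART neuropeptide gene, had 60.9, 148, 117, 258 and 182 CPM in MA, against 0.557, 0.653 and 1.19 CPM in MC_WT. Both were near 1 CPM in every melanocyte sample and well above it in every tumor. dlx2a, a homeobox gene of the cranial neural crest, had 162, 354, 470.3, 467 and 354 CPM in MA and 8.28, 5.49 and 2.58 CPM in MC_WT (log2 fold change 5.83). col9a2, a collagen IX chain of cartilage, had 192, 377, 105, 288 and 14.7 CPM in MA, against 1.43, 1.83 and 1.06 CPM in MC_WT, with MA3C the lowest tumor. The remaining genes among the 10 largest increases were tmeff1b (5.63) and gucy2c, a receptor guanylate cyclase (5.62). cxxc5a, a CXXC zinc-finger gene (4.38), was among the 5 higher genes with the smallest p.

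Genes of melanin synthesis and the melanosome were called higher in MA in 10 of 19 tested members (52.6%) and lower in 2 (10.5%), while 7 did not pass. Their median log2 fold change was 1.92 against 0.05 for all tested genes, of which 17.8% were higher and 24.7% lower. dct, dopachrome tautomerase, had 44.7, 175, 352, 218 and 264 CPM in MA, against 0.876, 8.82 and 13.8 CPM in MC_WT (log2 fold change 4.76 ± 0.73, SE; adjusted p = 0.0003). MA1 was the lowest tumor for dct and stood above all 3 melanocyte samples. tyrp1a, a tyrosinase-related enzyme, had 187, 411, 82.7, 303 and 303 CPM in MA, against 8.04, 8.88 and 11.8 CPM in MC_WT (4.44 ± 0.45, SE; adjusted p = 1.5e-05). pmela, which forms the fibrils on which melanin is laid down, had 701, 1233, 2314, 1071 and 3660 CPM in MA and 111, 231 and 235 CPM in MC_WT (3.05 ± 0.50, SE; adjusted p = 0.0005). tyr, tyrosinase itself, had 27.8, 156, 61.8, 99.1 and 78.6 CPM in MA and 8.04, 7.77 and 9.97 CPM in MC_WT (2.96). The lower members were rab38b, a small GTPase of melanosome biogenesis (-2.08), and oca2, a melanosomal transporter. oca2 had 2.13, 0, 1.76, 0.769 and 0.87 CPM in MA, against 3.1, 4.83 and 12.8 CPM in MC_WT, with a log2 fold change of -1.82 (adjusted p = 0.0099), and MC_WT1 was close to the highest tumor. The lower calls were 0 without MC_WT3, 1 without MC_WT1 and 1 without MC_WT2. The MC_WT samples differed from MA in markers of other skin cells, with keratinocyte marker sums of 1072 to 3038 CPM in MA and 87132 to 145412 CPM in MC_WT. The part of this difference in the values of pigment genes was not tested, and in bulk samples fewer cells of a type and less RNA per cell cannot be told apart.

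Regulators of the neural crest and melanocyte lineage moved in both directions, with more of them higher in MA. Of 25 tested members, 13 were called higher (52%) and 8 lower (32%), against 17.8% and 24.7% of all tested genes. The median log2 fold change was 1.70. mitfa, the melanocyte master regulator, had 159, 162, 175, 141 and 189.8 CPM in MA, against 23.8, 29.4 and 41.1 CPM in MC_WT. The means were 165 ± 18.4 CPM (SD, n = 5) and 31.4 ± 8.81 CPM (SD, n = 3), and the log2 fold change was 2.39 ± 0.25 (SE; adjusted p = 1.8e-05). The tumors were close to each other and stood well above every melanocyte sample. sox10, which maintains crest identity, had 596, 718, 464, 681 and 477 CPM in MA, against 33.8, 58.9 and 31.1 CPM in MC_WT (3.83 ± 0.28, SE; adjusted p = 1.5e-06). tfap2e, an AP-2 factor of the pigment lineage, had 408, 311, 204, 277 and 195 CPM in MA and 10.2, 10.5 and 10.4 CPM in MC_WT (4.57). pax3a, a paired-box factor of crest progenitors, had 64.2, 107, 38.7, 87.4 and 37.1 CPM in MA, against 1.35, 4.57 and 0.792 CPM in MC_WT (4.44). Members that ran the other way were pax7b, a xanthophore-lineage factor (-3.27), and erbb3b, a neuregulin receptor of crest cells and glia (-3.78). The 8 lower calls were 4 without MC_WT1, 4 without MC_WT2 and 3 without MC_WT3. In those fits erbb3b, under 1 CPM in every tumor, was not tested.

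**Figure D2:**
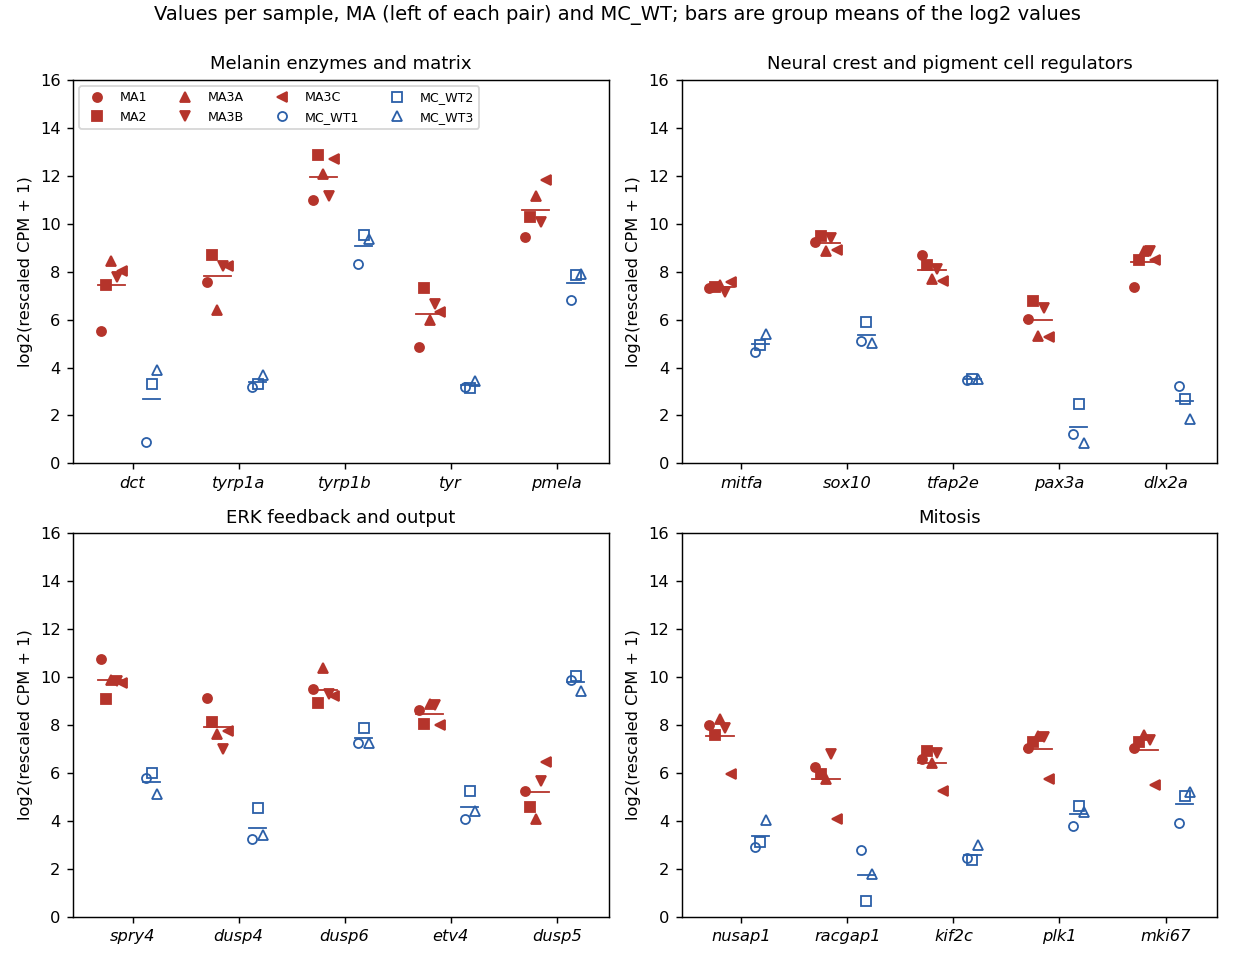
Log2 of rescaled CPM + 1 (vertical axes) of pigment, crest, ERK and mitosis genes, with filled red points for the 5 MA samples, open blue points for the 3 MC_WT samples right of them and lines at the group means of the log2 values. The MA points of mitfa lie between 141 and 189.8 CPM and those of sox10 between 464 and 718 CPM, above all MC_WT points, while dusp5 is lower in every MA sample and MA3C is the lowest MA point of the mitosis genes.

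Feedback genes of the ERK pathway were higher in MA for most members and lower for others. Of 16 tested members, 9 were called higher (56.2%) and 4 lower (25%), with a median log2 fold change of 2.03. Of all tested genes 17.8% were higher and 24.7% lower, so the lower share of the list was near that of all genes. The list's sum was 2722 to 5121 CPM in MA and 2287 to 3791 CPM in MC_WT, and the groups overlapped. Set against MC_Het in place of MC_WT, the list median was 1.81. The part of the oncogene in these values was not tested. spry4, a Sprouty inhibitor induced by ERK, had 1727, 549.9, 951, 907 and 876 CPM in MA, against 54.8, 62.3 and 33.4 CPM in MC_WT (4.24 ± 0.36, SE; adjusted p = 4e-06). dusp4, a nuclear phosphatase of ERK, had 561, 280.3, 196, 126 and 214 CPM in MA, against 8.36, 22.1 and 9.57 CPM in MC_WT (4.21). dusp6, the cytoplasmic ERK phosphatase, had 719.7, 489.9, 1335, 635 and 590.1 CPM in MA and 151, 233 and 150.3 CPM in MC_WT (2.01). Every tumor lay above every melanocyte sample in these and in etv4, an ETS target of the pathway (3.90). dusp5, a further nuclear ERK phosphatase, ran the other way at 36.6, 22.8, 15.9, 50.1 and 87.9 CPM in MA, against 937, 1048 and 686 CPM in MC_WT (-4.57). So did egr3, an immediate early factor (-4.09), fosl1a, a Fos-related AP-1 subunit (-3.29), and mycb, a Myc gene (-1.72). The dissociation-stress list as a whole summed to 3522 to 16858 CPM in MA and 30132 to 40009 CPM in MC_WT, and the part of dissociation in these values was not tested.

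Most of the called targets of p53 were lower in MA. Of 23 targets, 3 were called higher (13%) and 11 lower (47.8%), against 17.8% and 24.7% of all tested genes. The median was -0.79. cdkn1a, the p21 inhibitor of the cell cycle, had 35.7, 13.3, 9.5, 9.55 and 11 CPM in MA, against 55.1, 74 and 64.7 CPM in MC_WT (-2.14 ± 0.42, SE; adjusted p = 0.0015). gadd45aa, a growth-arrest gene, had 26.4, 34, 8.26, 5.83 and 19.7 CPM in MA and 218, 114 and 183 CPM in MC_WT (-3.33). pmaip1, the death gene Noxa, had 13, 2.53, 3.17, 7.69 and 11.5 CPM in MA and 84.5, 79.4 and 47.1 CPM in MC_WT (-3.22), below in every tumor. btg2, which opposes proliferation and is also in the dissociation list, had a log2 fold change of -3.26. mdm2, the ligase that degrades p53, went the other way at 63.5, 152, 159, 44.6 and 112 CPM in MA, against 21.7, 37.1 and 44.6 CPM in MC_WT (1.49; adjusted p = 0.016). The lowest tumor for mdm2, MA3B, was level with MC_WT3. plk2b, a polo-like kinase (1.18), and zmat3, a zinc-finger RNA-binding protein (1.17), were the other higher targets. With CPM as deposited 3 targets were higher and 5 lower, and the median was -0.05. Without MC_WT1 the calls were 0 higher and 7 lower, without MC_WT3 1 was higher, and with fish 3 averaged 1 was higher.

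Proliferation genes were higher in MA. In DNA replication 25 of 34 tested members were called higher and 0 lower, with a median of 1.53. In mitosis 37 of 40 were called higher and 0 lower, with a median of 2.47. nusap1, a spindle-assembly protein, had 258, 190.5, 309, 233 and 61.8 CPM in MA, against 6.53, 7.77 and 15.4 CPM in MC_WT (4.18 ± 0.49, SE; adjusted p = 4.1e-05). mki67, the Ki-67 marker, had 131, 158, 193, 164 and 44.2 CPM in MA, against 13.9, 31.8 and 36.1 CPM in MC_WT (2.25). racgap1, a GTPase regulator of cytokinesis, and kif2c, a microtubule-depolymerising kinesin, had log2 fold changes of 4.03 and 3.81. plk1, a mitotic kinase, had 130.2, 156, 185, 179 and 52.2 CPM in MA and 13, 23.8 and 19.8 CPM in MC_WT (2.75). MA3C was the lowest tumor in each of these 5, as in 39 of the 40 mitosis genes. The 3 mitosis genes not called were bub3, cdc25b and nuf2, and cdc25b had 118, 114, 119, 93.3 and 28.4 CPM in MA, against 89.1, 113 and 66.9 CPM in MC_WT. In DNA replication tyms, thymidylate synthase, had 23.7, 18.2, 33.5, 49.6 and 19.3 CPM in MA, against 3.9, 8.23 and 0.132 CPM in MC_WT (2.91). gins2, a subunit of the replicative helicase, was at 2.48. rrm2, a subunit of ribonucleotide reductase, overlapped because MA1 had 0.418 CPM, whereas the other tumors had 31.8, 26.4, 44.4 and 25.9 CPM and MC_WT had 0.557, 0.196 and 0.264 CPM (3.70).

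Ribosome production, purine synthesis and glycolysis had smaller medians than the mitosis list. In nucleolar ribosome biogenesis 25 of 50 members were called higher and 0 lower, with a median of 1.02, led by nle1 (2.34), noc2l (2.21) and nol9 (1.92). De novo purine synthesis had 3 of 16 members higher (18.8%, near the 17.8% of all tested genes) and 0 lower, namely gmps (1.69), prps1a (1.37) and prps1b (1.18). Without MC_WT3 prps1b fell under the fold limit, at 0.99. Cytosolic ribosomal proteins had 3 of 71 higher (4.23%) and 1 lower (1.41%), with a median of 0.20, and both shares were under those of all tested genes. The higher members were rpl10 (1.65), faub (1.81) and rps21 (1.07), and rps11l was the lower member (-3.81). The higher calls were 6 without MA1 and 6 without MA3A, and the lower ones 2 without MA3C. Mitochondrial ribosomal proteins had 13 of 63 higher and 0 lower (median 0.73), and the 20.6% higher were near the 17.8% of all tested genes. mrps18b (1.84), mrpl24 (1.68) and mrpl41 (1.64) were among them. Glycolysis had 2 of 21 higher (9.52%) and 4 lower (19%), under the 17.8% and 24.7% of all tested genes. The gene gapdh, a glyceraldehyde-3-phosphate dehydrogenase, had 0.209, 1.6, 0.321, 0.162 and 0.316 CPM in MA, against 182, 83.7 and 41.3 CPM in MC_WT (-5.91). This is the value of a single gene, and any other gene for the same step is not described here. aldocb, an aldolase (2.54), and eno1a, an enolase (1.66), were the higher members, of which 1 was called without MC_WT1 and 1 without MC_WT3. The lower ones included slc2a1b, a glucose transporter (-2.36). The sum of the glycolysis members was 2321 to 7659 CPM in MA and 3844 to 4374 CPM in MC_WT, and the groups overlapped. The counts of these lists rest on the scaling, since CPM as deposited called 47 nucleolar, 34 cytosolic ribosomal protein, 49 mitochondrial ribosomal protein and 8 purine synthesis genes higher.

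Epidermal genes were among the largest decreases of the comparison. krt5, a basal keratin, had 136, 72.3, 126, 60.3 and 81 CPM in MA, against 83732, 38218 and 43376 CPM in MC_WT (-9.15 ± 0.37, SE; adjusted p = 5.9e-08). epcam, an epithelial adhesion molecule, had 18.5, 12.8, 32.8, 18.9 and 35.5 CPM in MA, against 8085, 5657 and 6361 CPM in MC_WT (-8.16). All 22 tested keratinocyte markers were called lower and 0 higher, with a median of -7.18. Their sum was 1072 to 3038 CPM in MA and 87132 to 145412 CPM in MC_WT. In the keratin list, which also holds the ictacalcin gene icn2, 16 of 18 were lower. Among claudins, the tight-junction proteins, 15 of 21 were lower and cldng was higher (2.60). cldni, a claudin, had 13.3, 5.67, 50.8, 22.4 and 9.17 CPM in MA, against 6292, 2972 and 5760 CPM in MC_WT (-8.18). cldne and cldnb were at -8.14 and -8.11, while the claudin sum was 135 to 341 CPM in MA and 19676 to 30591 CPM in MC_WT. dsg2.1, a desmosomal cadherin, had 3.97, 2.88, 8.94, 3.76 and 4.15 CPM in MA, against 1913, 1384 and 1382 CPM in MC_WT (-8.15). Decreases of similar size were found for the prostaglandin D synthase genes. ptgdsb.2 had 10.3, 8.16, 11, 12.3 and 15.1 CPM in MA, against 9445, 5670 and 7693 CPM in MC_WT (-9.26), and ptgdsb.1 had a log2 fold change of -8.75. icn2, an S100-type calcium-binding protein of fish skin (-8.25), klf2b, a Krüppel-like factor (-8.14), and krt17, a keratin whose symbol is shared by a second gene (-8.29), completed the 10 largest decreases together with cyp7a1. upk1a, a uroplakin of epithelial surfaces and among the 5 lower genes with the smallest p, had 2.51, 2.13, 3.85, 2.71 and 3.44 CPM in MA, against 635, 543 and 746 CPM in MC_WT (-7.36). The clone-named gene si:ch211-157c3.4 was also in that set (-8.28). col17a1b, a collagen of the hemidesmosome, was at -6.69.

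Markers of leukocytes, fibroblasts, muscle and endothelium were also lower in MA. Leukocyte markers were called lower in 21 of 26 members and higher in 0, and their sum was 163 to 1468 CPM in MA and 8744 to 10706 CPM in MC_WT. cd74a, the MHC class II invariant chain, had 574, 50.9, 53.7, 71.8 and 325 CPM in MA, against 5387, 3273 and 4680 CPM in MC_WT (-5.05), with MA1 the highest tumor. cd74b was at -5.14. hcls1, a blood-cell adaptor, had 16.8, 3.59, 4.93, 2.27 and 4.19 CPM in MA and 263, 211 and 232 CPM in MC_WT (-5.28), again with MA1 highest. Fibroblast and osteoblast markers were lower in 20 of 21, with sums of 72.8 to 314 CPM in MA and 2249 to 3780 CPM in MC_WT. dcn, decorin, had 1.09, 0.798, 0.681, 1.7 and 13.3 CPM in MA and 387, 317 and 220.1 CPM in MC_WT (-6.65), and MA3C stood above the other tumors. col1a2, a chain of collagen I, had 3.68, 2.44, 3.61, 3.08 and 31.2 CPM in MA, against 651, 251 and 952 CPM in MC_WT (-6.42), with MA3C again apart. fgl2a, a fibrinogen-like gene, was at -5.97. Muscle markers were lower in 13 of 15, with acta1a, an actin, higher (1.36) and with sums of 15.1 to 18.6 CPM in MA and 177 to 669 CPM in MC_WT. Parvalbumin pvalb4 (-4.96), the creatine kinase ckmb (-5.16) and the myosin light chain mylpfa (-5.29) were the largest among them. Of these, pvalb4 and mylpfa reached the test only through MC_WT. The lower muscle calls were 5 on leaving out any MC_WT sample, where pvalb4 and mylpfa, under 1 CPM in every tumor, were not tested. Among genes averaging 5 CPM or more they were 7. The 13 lower calls include members that reached the test only through MC_WT, and the count is no result about those members. The higher member acta1a lost its call without MC_WT1, without MC_WT3 and with fish 3 averaged. Endothelial markers were lower in 11 of 18 and higher in 0, with sums of 17.8 to 45.5 CPM in MA and 174 to 232 CPM in MC_WT, and 6 were called without MC_WT2. The endothelial genes sox7 (-3.80), she (-3.75) and vwf, von Willebrand factor (-3.66), led them. Under 1 CPM in every tumor, vwf was not tested without MC_WT2. Collagens were lower in 26 of 35 and higher in col9a2 and col9a1a (1.59), and 17 were lower without MC_WT3, and 1 was higher without MC_WT1 and 1 without MC_WT2. Erythrocyte markers were lower in 2 of 9 (22.2%, under the 24.7% of all tested genes), hbaa2, an alpha globin (-2.80), and slc4a1a, the anion exchanger of red cells (-1.84), and in 0 with the tumors of fish 3 averaged. The beta globins hbba1 (-1.61) and hbba2 (-2.14) did not pass. The erythrocyte count was 6 without MA2, 4 without MA1, 1 without MA3A and 0 without MC_WT1. The part of these other cells in the differences of other genes was not tested.

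**Figure D3:**
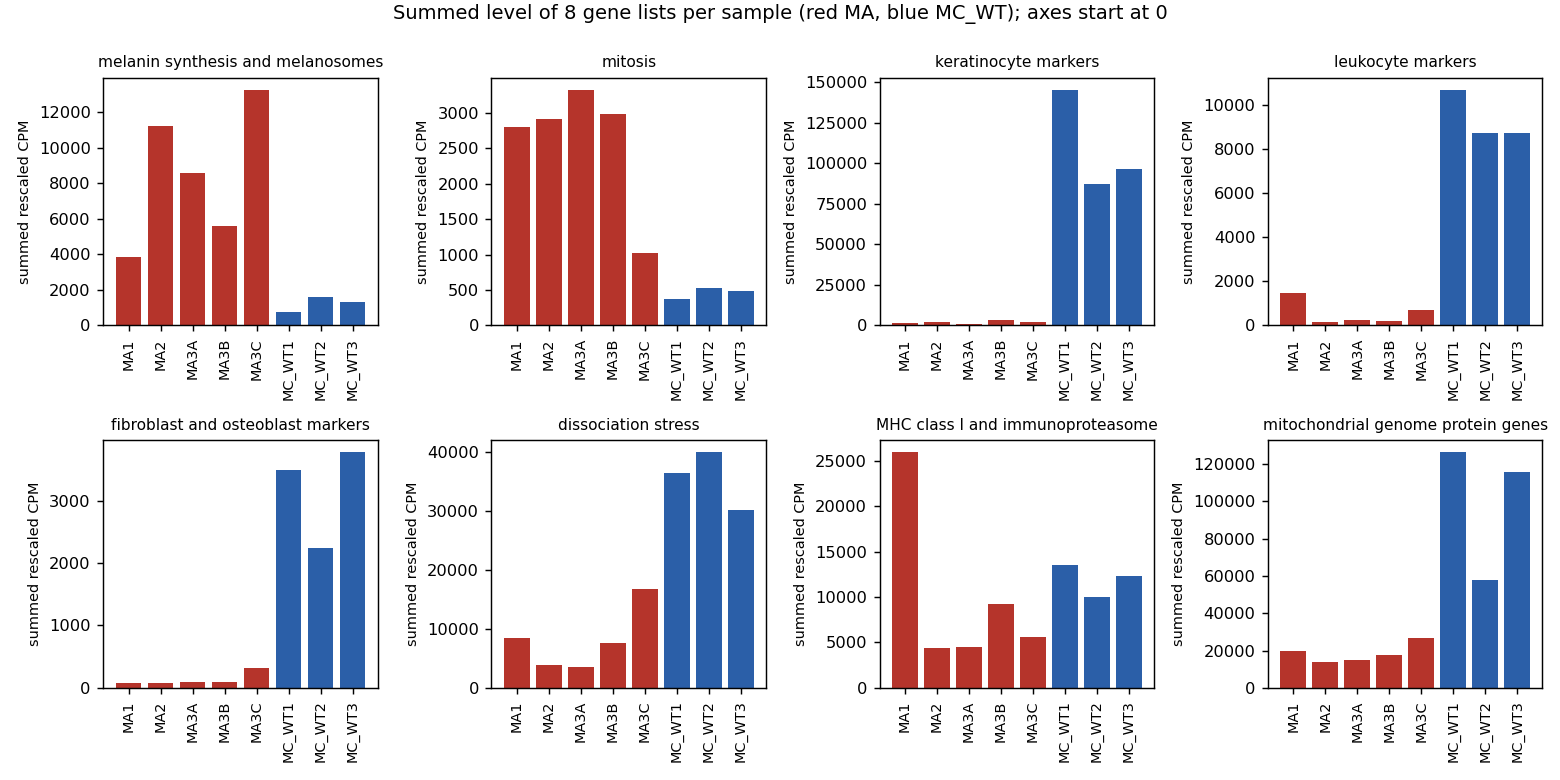
Summed rescaled CPM (vertical axes, from 0) of the tested members of 8 gene lists, with a bar for each of the 5 MA samples (red) and, right of them, the 3 MC_WT samples (blue). Keratinocyte marker sums are 1072 to 3038 CPM in MA and 87132 to 145412 CPM in MC_WT, melanin and mitosis sums are higher in each MA sample than in each MC_WT sample, and in the MHC class I sums MA1 lies above every MC_WT sample and the other MA samples lie below.

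Pigment-cell lists other than the melanocyte list moved in opposite directions. Iridophore markers were called higher in 4 of 9 members and lower in 1 (median 1.38). The higher members were crip2, a LIM-domain protein (4.24), alx4a, a homeobox gene (2.85), ednrba, an endothelin receptor of the lineage (2.41), and defbl1, a defensin-like gene (2.17), and the lower member was apodb, an apolipoprotein D (-3.28), with 2 lower calls without MA3C and 2 without MC_WT3. Xanthophore markers were lower in 5 of 9 and higher in 1 (median -2.09), with aox5, an oxidase of the pteridine pathway, at -5.13, bscl2l, a seipin-like gene, at -5.26, slc22a7a, an organic anion transporter, at -4.46 and slc2a15b, a transporter needed by xanthophores, higher at 3.01. Schwann and glial markers were lower in 6 of 8. pmp22b, a myelin gene, was at -5.24 and held most of the list's sum in MC_WT. It had 3999, 2620 and 2527 CPM there, of sums of 4417, 2996 and 2902 CPM. egr2a, a regulator of myelination that is also in the dissociation list, was at -3.67. sox2, a factor of stem cells and glia, was higher at 3.01. The lower glial calls were 3 without MC_WT1 and 3 without MC_WT2, where erbb3b, also on this list, was again not tested.

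Dissociation-stress genes, the immediate early and heat-shock genes that enzymatic digestion induces, were lower in MA in 18 of 30 members and higher in 3, with a median of -2.26. fosab, a Fos subunit of AP-1, had 2222, 571, 496, 1576 and 4325 CPM in MA, against 10505, 12213 and 8515 CPM in MC_WT (-2.94). The Krüppel-like factors klf2a and klf4 were at -7.73 and -6.68. The 3 higher members were the heat-shock genes hspa1b (2.41) and hsp70.1 (1.78) and ier5l, an immediate early response gene (2.25). The list's sum was 3522 to 16858 CPM in MA and 30132 to 40009 CPM in MC_WT, so the groups did not overlap, and MA3C was the highest tumor in 20 of the 30 genes. Liberase digestion was used in preparing the cells, and whether its effect differed between tumor and skin was not tested.

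All 20 genes of cholesterol synthesis, uptake and its control were called lower in MA, with a median of -5.12, but the melanocyte samples were divided. msmo1, a sterol demethylase, had 7.4, 5.9, 5.49, 5.54 and 6.72 CPM in MA, against 7550, 64.8 and 8614 CPM in MC_WT (-7.82 ± 1.26, SE; adjusted p = 0.00041). MC_WT2 was nearer to the tumors than to the other melanocyte samples, yet above all 5 tumors. hsd17b7, a sterol ketoreductase, had 0.167, 0.399, 0.281, 0.445 and 0.277 CPM in MA, against 298, 21.9 and 210.2 CPM in MC_WT (-6.43). hmgcra, the rate-limiting reductase that statins block, had 7.61, 17.3, 2.89, 4.09 and 4.51 CPM in MA, against 915, 66.1 and 1041 CPM in MC_WT (-5.83). cyp51, lanosterol demethylase, had 9.24, 13.7, 18.4, 16.4 and 9.96 CPM in MA, against 3944, 58.1 and 5131 CPM in MC_WT (-6.23). MC_WT2 was the lowest melanocyte sample in all 20 genes, by 4.11-fold to 162-fold below the smaller of the other two, with a median of 25.0-fold. It remained above every tumor in 16 of 20 genes. In ebp, an isomerase of the pathway, it did not, at 11.6, 8.29, 8.05, 15.5 and 6.44 CPM in MA, against 2187, 13.5 and 2405 CPM in MC_WT (-5.33). ebp was named for its wide range over the melanocyte samples, so that its division describes the choice. Calls of lower in MA numbered 17 of 20 without MC_WT2, 14 without MC_WT1 and 14 without MC_WT3, and 18 with the tumors of fish 3 averaged. Under 1 CPM in every tumor, hsd17b7 was not tested on leaving out an MC_WT sample. The medians over the 20 genes were 6.0, 7.09, 4.41, 4.82 and 5.59 CPM in MA, 37.6, 33.3 and 11.5 CPM in MC_Het1, MC_Het2 and MC_Het3, and 404, 20.3 and 481 CPM in MC_WT. Every MC_Het sample was below MC_WT1 and MC_WT3 in 20 of 20. srebf2, which switches these genes on when sterols are scarce, had a log2 fold change of -3.70.

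**Figure D4:**
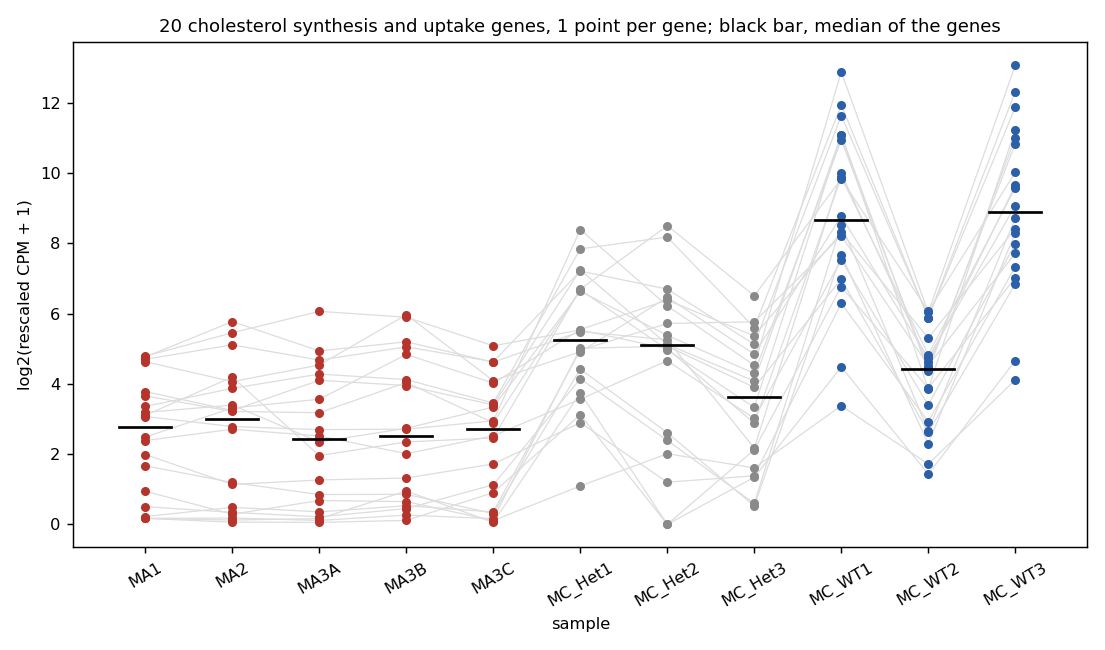
Log2 of rescaled CPM + 1 (vertical axis) of 20 cholesterol synthesis and uptake genes in each sample, from MA through MC_Het to MC_WT, with a point for each gene, grey lines joining a gene across samples and black bars at the medians. The medians are 4.41 to 7.09 CPM in the tumors, 20.3 CPM in MC_WT2, and 404 and 481 CPM in MC_WT1 and MC_WT3.

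Of the other lipid and redox genes named here, sult2st3 and cyb5r2 were named for their wide range over the melanocyte samples, so that their division describes the choice. cyp7a1, the rate-limiting enzyme of bile acid synthesis in mammals, had 4.43, 3.86, 4.17, 3.76 and 3.16 CPM in MA, against 1902, 361 and 6633 CPM in MC_WT (-8.42 ± 0.69, SE; adjusted p = 3e-06). MC_WT2 was the lowest melanocyte sample and still far above the tumors. sult2st3, a steroid sulfotransferase, had 13.4, 1.11, 3.05, 1.54 and 3.72 CPM in MA, against 3866, 12.5 and 2583 CPM in MC_WT (-6.90), so that MA1 and MC_WT2 overlapped. cyb5r2, a cytochrome b5 reductase, had 5.65, 8.51, 3.97, 7.53 and 9.01 CPM in MA, against 649, 3.98 and 699 CPM in MC_WT (-4.10). MC_WT2 lay at the bottom of the tumors' range for cyb5r2, and the call was lost with the tumors of fish 3 averaged (adjusted p = 0.072), without MC_WT1 (adjusted p = 0.12) and without MC_WT3 (adjusted p = 0.12).

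Protein genes of the mitochondrial genome were lower in all 13 of 13, with a median of -1.94. With CPM as deposited 10 were lower, and the median was -1.17. mt-cyb, cytochrome b, had 1612, 1103, 1016, 2026 and 2264 CPM in MA, against 19601, 9182 and 18697 CPM in MC_WT (-3.29), and mt-co1, a cytochrome oxidase subunit, had 8928, 5934, 6793, 7624 and 11171 CPM in MA, against 57596, 25384 and 51997 CPM in MC_WT (-2.42). The call of mt-co1 was lost with no filter (limma adjusted p = 0.064). mt-co3, another subunit, was at -2.38. MC_WT2 was the lowest melanocyte sample in all 13 genes. The mitochondrial rRNA gene AC024175.4, the most abundant gene of both groups, had 44760, 69034, 62261, 51660 and 106570 CPM in MA, against 142950, 73680 and 115170 CPM in MC_WT, and did not pass (-0.74 ± 0.66, SE; adjusted p = 0.38). Of 79 nuclear respiratory chain subunits, 8 were higher and 3 lower, with a median of 0.23. At 10.1% higher and 3.8% lower they were under the 17.8% and 24.7% of all tested genes. The largest increases were ndufa4 (3.49), cox4i1l (3.31) and cox4i2, a cytochrome oxidase subunit of low oxygen (2.89), and the groups overlapped in ndufa4 and cox4i1l. Both calls were lost without MA1, MA3A, MC_WT1 or MC_WT3 and that of ndufa4 also without MA2, at adjusted p of 0.051 to 0.13. In the V-ATPase, the proton pump of acidic organelles, 4 of 19 subunits were higher and 2 lower. The 21.1% higher were near the 17.8% of all tested genes, and the 10.5% lower were under the 24.7%. The subunit atp6v0cb was at 3.55, atp6v0a1a at -1.83 and atp6v0ca at -1.71, and both lower calls were lost with CPM as deposited. In the V-ATPase 2 were higher without MC_WT1. CPM as deposited gave 39 respiratory chain subunits and 7 V-ATPase subunits higher. Single samples moved the 8 higher respiratory chain calls to 4 without MC_WT1 and 5 without each of MC_WT3, MA1 and MA3A, and the lower calls to 1 without MC_WT1.

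Antigen presentation and interferon genes differed widely among the tumors. MHC class I and immunoproteasome genes had 1 of 21 higher (4.76%) and 3 lower (14.3%), with a median of -0.77. Interferon-response genes had 5 of 30 higher (16.7%) and 2 lower (6.67%), with a median of 0.28. These shares did not exceed the 17.8% higher and 24.7% lower of all tested genes. isg15, a ubiquitin-like interferon product, had 619, 183, 147, 384 and 225 CPM in MA, against 20.5, 3.07 and 6.07 CPM in MC_WT (4.99). ifit8 and ifit10, tetratricopeptide genes of the interferon response, were at 3.31 and 3.83. ifit8 had 577, 10.1, 104, 84 and 48.5 CPM in MA and 8.68, 3.2 and 10.9 CPM in MC_WT, with MA1 far above and MA2 level with the melanocytes, and its call was lost without MC_WT2 (adjusted p = 0.059). mhc1uba, a class I gene, had 14632, 1448, 1447, 3265 and 1727 CPM in MA, against 4369, 2887 and 3732 CPM in MC_WT (-0.37; adjusted p = 0.69). tapbp.2, a tapasin gene, was the higher class I member (2.70), and tap1, a peptide transporter (-1.69), mhc1uka (-1.62) and psme2, a proteasome activator subunit (-1.02), were the lower ones. The call of tap1 was lost in 10 of the alternatives, among them without MA2 (adjusted p = 0.061), MA3A (adjusted p = 0.059), MA3C (adjusted p = 0.061), MC_WT1 (adjusted p = 0.081) and MC_WT2 (adjusted p = 0.13). MA1 was the highest tumor in 19 of 21 MHC class I genes, 20 of 30 interferon genes and 20 of 26 leukocyte markers, and the relation between them was not tested. Without MA1 the lower calls of the MHC list were 11, and they were 1 without each of MA2, MA3A, MA3C, MC_WT1 and MC_WT2. With fish 3 averaged, 1 MHC gene was lower and 3 interferon genes were higher, and tap1 had an adjusted p of 0.082. Higher MHC calls were 3 without MA2. The higher interferon calls were 9 without MA2 and 3 without MC_WT2, and the lower ones 1 without MA3B and 0 on leaving out any of the MC_WT samples. CPM as deposited gave 3 higher and 0 lower MHC genes, and 12 higher and 1 lower interferon genes.

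Positional and clock genes were called in both directions. Of 25 Hox genes 6 were higher (24%) and 10 lower (40%), against 17.8% and 24.7% of all tested genes. The lower ones were 6 without MC_WT1, 5 without MC_WT2 and 5 without MC_WT3. They were 2 among genes averaging 5 CPM or more, 5 with a pseudocount of 5 and 6 with edgeR. The larger lower share of the Hox list therefore depended on genes of low level. hoxd9a had 154, 57.4, 282, 143 and 74.7 CPM in MA, against 8.04, 15.9 and 18.7 CPM in MC_WT (3.09). hoxc13b (3.90) and hoxd3a (3.25) were the largest increases of the family, and hoxc13b had 3.05, 64.1, 11.3, 41.3 and 5.73 CPM in MA against 0.0796, 0.0653 and 0 CPM in MC_WT. hoxa13b had 2.38, 1.33, 0.361, 2.27 and 0.0395 CPM in MA, against 4.06, 63.8 and 15.5 CPM in MC_WT (-3.10). MA3C was the lowest tumor in 14 of the 25, and it was also the lowest in 39 of the 40 mitosis genes. The tumors of fish 3 lay at different body sites, but no site is assigned to a tumor here. A relation of Hox levels to site was not tested. Of 35 clock genes 3 were higher, nr1d4b, a Rev-erb repressor (1.70), clocka (1.09) and rorca, a ROR receptor (1.00), and 8 were lower, which at 8.57% higher and 22.9% lower did not exceed the 17.8% and 24.7% of all tested genes. CPM as deposited gave 9 higher and 1 lower. The higher clock calls were 5 without MA1, 1 without MA3A, 1 without MC_WT2 and 0 without MC_WT3, and the lower ones 5 without MC_WT1, 3 without MC_WT2 and 5 without MC_WT3. hlfa, a PAR bZIP factor of the clock output, had 12.2, 8.78, 381, 242 and 503 CPM in MA, against 846, 1896 and 908 CPM in MC_WT (-3.65), and the tumors of fish 3 were well above MA1 and MA2. The call of hlfa was lost without MA1 (adjusted p = 0.054), MC_WT1 (adjusted p = 0.062), MC_WT2 (adjusted p = 0.09) and MC_WT3 (adjusted p = 0.064). hlfb, its paralog, was at -3.33. nfil3-6, a bZIP repressor, had 26.1, 20.6, 80.8, 97.8 and 606 CPM in MA, against 431, 574 and 359 CPM in MC_WT (-2.52), and MA3C was above every melanocyte sample. Its call was lost without MA1, MA2 or MA3A and without any MC_WT sample (adjusted p of 0.056 to 0.087), and with edgeR (adjusted p = 0.25).

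**Figure D5:**
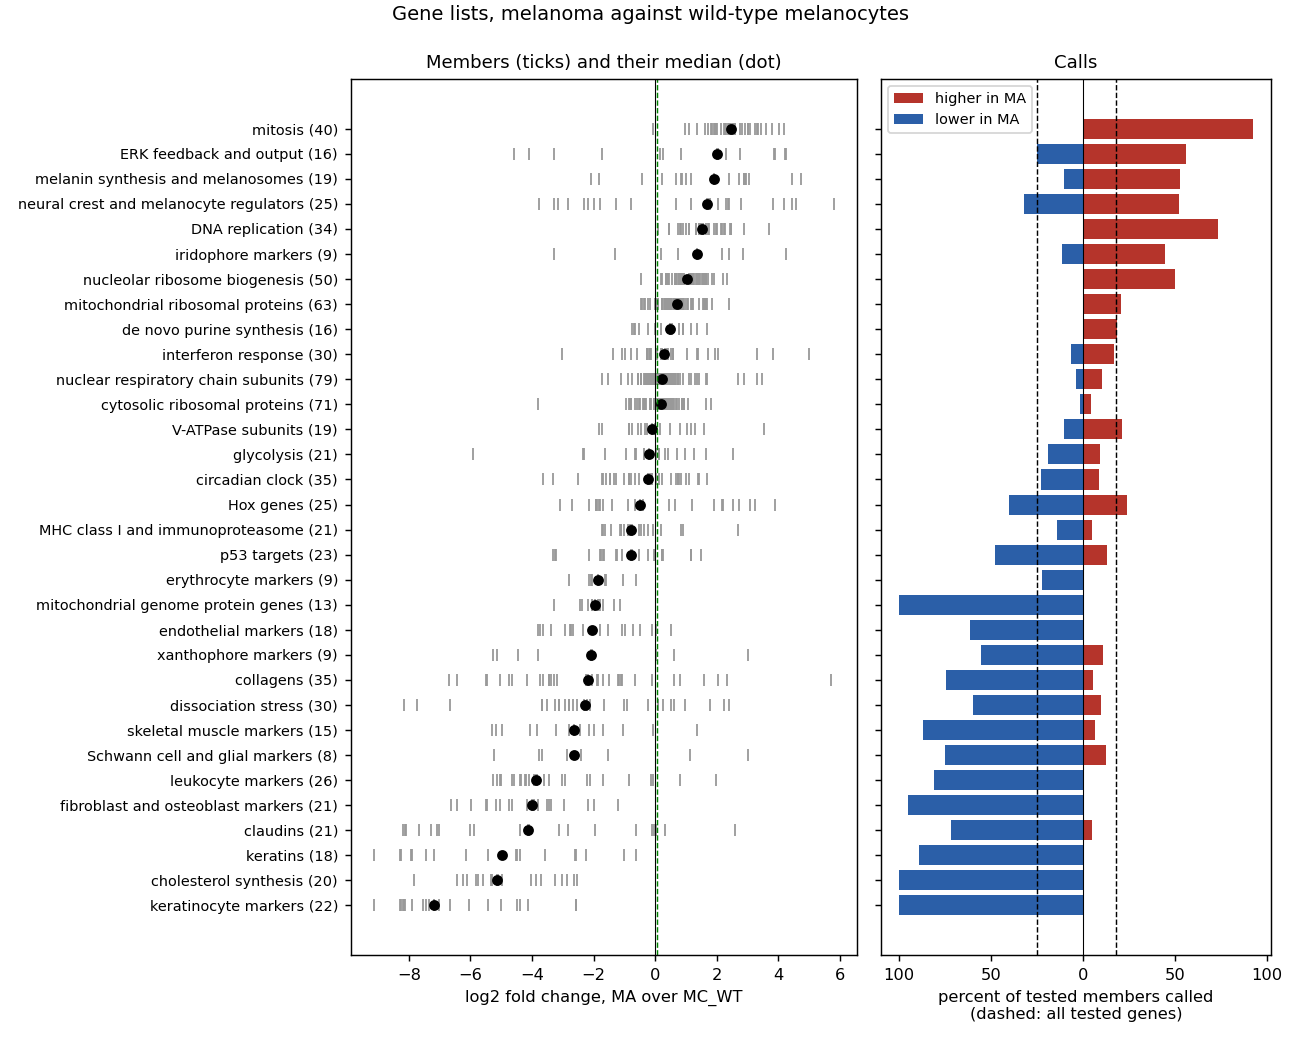
Left, log2 fold change of MA over MC_WT for each tested member of a gene list (ticks) and the list's median (dots), with the median of all tested genes as a dashed line; right, the percent of members called higher or lower in MA, with the percent of all tested genes dashed. Keratinocyte markers have a median of -7.18, cholesterol synthesis -5.12 and mitosis 2.47.

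Some genes varied widely between tumors. The called genes with the widest range over tumors included pax8, a paired-box factor, with 41.6, 0.0443, 143, 82.3 and 48 CPM in MA, against 0.398, 0.0653 and 0.132 CPM in MC_WT (4.68). chrm4b, a muscarinic receptor, had 17.6, 0.709, 201, 20.1 and 83.7 CPM in MA, against 0.318, 3.92 and 0.132 CPM in MC_WT (3.73). MA2 was at melanocyte level for both genes. The clone-named si:dkey-183j2.10 had 332, 2.48, 929, 135 and 384 CPM in MA, against 1.27, 1.7 and 1.39 CPM in MC_WT (5.85), with MA2 low again. The call of pax8 was lost with fish 3 averaged (adjusted p = 0.058), as was that of chrm4b (adjusted p = 0.098). The chrm4b call was also lost without MA3A (adjusted p = 0.051), MA3C (adjusted p = 0.056), MC_WT1 (adjusted p = 0.09) and MC_WT3 (adjusted p = 0.096). At the other end, 39 tested genes had 0 reads in all 3 melanocyte samples, and they reached the test only through their level in the tumors. lhx4, a LIM homeobox gene, averaged 5.66 ± 2.47 CPM in MA (SD, n = 5) and had 0 reads in MC_WT, so it was at least 23.7-fold higher than the 3-read floor of the melanocyte libraries. Likewise 13 genes with 0 reads in all tumors were tested only because all 3 melanocyte samples reached 1 CPM, so their calls are no result about them. wnt6b, a Wnt ligand with 0 reads in MA, averaged 4.08 ± 1.90 CPM in MC_WT (SD, n = 3), at least 30.7-fold above the 3-read floor of the tumor libraries. Both lhx4 and wnt6b reached the test through the group where they were high, so these distances describe that choice.

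The melanoma comparison was also set beside the non-tumor melanocytes of the oncogene carriers. Of the 5928 genes, 106 passed for MC_Het against MC_WT in the fit of all 3 groups, where 1.43% of 14706 tested genes passed. Leaving out single samples moved this to 21 without MC_WT1, 26 without MC_WT3, 34 without MC_Het2, 43 without MC_Het3 and 181 without MC_WT2. The comparison shares its MC_WT samples with the melanoma comparison. Set against MC_Het in place of MC_WT, the medians of the lists in MA were 3.10 for mitosis, -6.99 for keratinocyte markers, 0.97 for melanin genes and -1.60 for cholesterol synthesis. pmela had 701, 1233, 2314, 1071 and 3660 CPM in MA, 1266, 779.6 and 262 CPM in MC_Het, and 111, 231 and 235 CPM in MC_WT, and MA overlapped MC_Het but not MC_WT. tyrp1b, the tyrosinase-related enzyme, had 2032, 7498, 4276, 2263 and 6577 CPM in MA, 4037, 3141 and 1075 CPM in MC_Het, and 316, 732 and 649 CPM in MC_WT. Its log2 fold change was 0.75 against MC_Het and 2.89 against MC_WT, and only that against MC_WT was called (adjusted p = 0.26 against MC_Het).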

How the data were processed

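RNA-seq libraries (50 bp single-end reads of amplified cDNA) were made from sorted GFP-positive melanoma cells and sorted mCherry-positive skin melanocytes, and the 11 samples share 1 sequencing run per the labels. Alignment by the authors used STAR and the GRCz11 genome, and the program that counted reads per gene is not given in the sources used here, since the methods name RSEM with RefSeq while the table has Ensembl identifiers. The authors deposited CPM (reads per 1e6 reads of the library) and RPKM (CPM divided by a fixed length per gene). The listed genes held 89.5 to 92.0% of each library, and 236 identifiers on several rows with equal values were used once. All CPM values were whole multiples of 1 read within 0.02, so whole reads were recovered for alternatives only. Genes of the transgenes (crestin reporter, fluorescent proteins, human BRAF) were not analysed here. No genome of the files' build was used, so no coordinates or sequences are given.

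CPM values were rescaled by the median of ratios (factors of 1.12 to 1.31 in MA and 0.63 to 0.82 in MC_WT), a gene was kept where 3 or more of the 8 samples reached 1 CPM, and log2(CPM + 1) was fitted with limma 3.58.1 (R 4.3.3, variance trend, Benjamini-Hochberg adjustment over all tested genes) on MA and MC_WT alone. The step was tested on simulated data. Alternatives were other scalings, filters and pseudocounts, the RPKM table, edgeR 4.0.16 and DESeq2 1.42.0 on recovered reads, fish 3 averaged or as a random block, blocking on the replicate number, and leaving out each sample. An exact permutation test of a single value over 5 and 3 samples cannot go below a two-sided p of 0.036. MC_WT samples came from separate fish. The adjusted p-values rest on the spread within both groups, with the 5 tumors of 3 fish entered as separate samples. Where fish was a random block, the correlation within fish was 0.272. No pair of samples agreed within sampling noise.

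The genes and gene lists were chosen with earlier results of these data known. Genes named were the 10 with the largest change per direction among called genes with a current symbol, no overlap and at least 10 CPM in the higher group, from each list the 3 called members with the largest change and at least 10 CPM (or the most abundant where fewer were called), the 5 smallest p per direction, the most abundant gene of each group, and the 3 called genes with the largest range in each group. Other genes named were chosen after their values were seen, among them mitfa, sox10, tyr, tyrp1b, oca2, dusp6, etv4, cdkn1a, mdm2, mki67, plk1, cdc25b, hmgcra, srebf2, hoxd9a, mhc1uba, fosab, sox2, lhx4, wnt6b and members given to complete a count of few genes. Some results are not reported here.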

Additional observations from a re-analysis of the deposited data

Results flagged for a closer look

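In 19 of the 116 genes taken up by the naming rule, a single tumor lay far above the other 4, by a gap above Dixon's 95% limit for 5 samples on the CPM scale. That limit flags about 1 in 20 groups of independent, normally distributed values. CPM need not be so distributed, and the 116 genes were picked by their values in these same data. Those named for their range over tumors, pax8, chrm4b and si:dkey-183j2.10, were not among the flagged genes. The 19 flags are therefore not set against that rate. The groups of 3 melanocyte samples were too small for this check. No cause was tested for any of them, and the tumors are not independent, since 3 came from 1 fish.

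MA3C was the high tumor in 6 genes. It had 13.3 CPM of dcn and 31.2 CPM of col1a2, which are matrix genes of fibroblasts. It had 606 CPM of nfil3-6, a bZIP repressor, and 9.61 CPM of the claudin cldne. Of the xanthophore markers it had 16.1 CPM of bscl2l and 3.44 CPM of slc22a7a.

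MA2 was apart in 7 genes. It had 251 CPM of ndufa4 and 251 CPM of cox4i1l, which are respiratory chain genes, and 33.8 CPM of the mitochondrial ribosomal protein gene mrpl41. The nucleolar gene nle1 stood at 81.0 CPM, the glucose transporter slc2a1b at 32.1 CPM, gapdh at 1.60 CPM and the beta globin hbba1 at 51.0 CPM in the same tumor.

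MA1 was the high tumor in 3 genes, with 577 CPM of ifit8, 16.8 CPM of the blood-cell adaptor hcls1 and 13.4 CPM of the sulfotransferase sult2st3. MA3A stood apart with 8.94 CPM of dsg2.1 and 6.89 CPM of hlfb, and MA3B with 0.324 CPM of the myosin light chain mylpfa.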

How the results depend on the processing

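Of the 116 genes that the naming rule took up, 98 had the same direction and call under all 24 alternatives that could be fitted for them. The mitochondrial rRNA gene AC024175.4, which did not pass in either, was at 0.033 with CPM as deposited and -0.74 in the reported fit, and no other of these genes turned its direction. The higher genes numbered 5114 with CPM as deposited, 1620 with a pseudocount of 5 and 11 at a limma adjusted p under 1e-06, against 2482. The lower genes numbered 2294 among genes averaging 5 CPM or more and 190 at a limma adjusted p under 1e-06, against 3446. On the recovered reads edgeR called 2319 higher and 3066 lower, and DESeq2 2730 higher and 3354 lower. Leaving out 1 sample gave 1867 to 2524 higher and 2377 to 3385 lower genes. Fits without an MC_WT sample did not test genes under 1 CPM in every tumor. The genes of the melanoma comparison that passed between MC_Het and MC_WT were 35 in the 6 melanocyte samples alone, 66 with CPM as deposited, 37 among genes averaging 5 CPM or more, 66 with no filter and 56 with a pseudocount of 0.1, against 106, and 21 to 181 on leaving out 1 sample. With the sample number as a replicate block 2461 genes were higher and 3434 lower. Same-numbered samples did not deviate together (correlations of -0.058 to 0.027), so the samples share only a number, and 2 of the 116 genes lost their call under the block. Fold changes of low genes depend on the pseudocount, and a gene below 3 reads in a library, 0.119 to 0.133 CPM in MA and 0.196 to 0.239 CPM in MC_WT, was not resolved. The causes of these changes were not tested.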

Other observations

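Among long non-coding RNA genes of the table, 19 of 87 tested lincRNA genes were called higher in MA and 24 lower, and of 52 antisense genes 10 were higher and 12 lower. Both classes were near the 17.8% higher and 24.7% lower of all tested genes, so the counts mark nothing particular to them. Protein-coding genes gave 2425 higher and 3363 lower of 13623 tested. Whether the counting used strand is not given in the sources used here, so reads of an antisense gene and of its partner may not be separated.

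MC_WT2 was also the melanocyte sample with the highest level in 26 of 34 DNA replication genes. Genes of the replication list summed to 1312 to 2269 CPM in MA and 517, 785 and 408 CPM in MC_WT1, MC_WT2 and MC_WT3.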
